A study of Mus musculus with 6 samples.

Results

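The ATF4 regulators of the integrated stress response were followed in mouse blood stem and progenitor cells that carried a hairpin against Cxxc5. The set held 10 genes, taken by name from a deposited table of 49671 Ensembl gene identifiers: Atf4, Ddit3, Trib3, Nupr1, Atf3, Atf5, Cebpb, Cebpg, Ppp1r15a and Sesn2. Each of the 10 matched 1 identifier and passed the filter on low counts. The cells came from BALB/c bone marrow enriched for stem and progenitor cells and infected with retrovirus. In the shCxxc5 group (3 libraries) the virus carried a short hairpin RNA against Cxxc5, and in the shCtrl group (3 libraries) a hairpin with no mouse target. Both groups therefore underwent infection, and both were sorted for GFP and for the LSK gate, which takes cells that lack lineage markers and carry Sca-1 and Kit. Blood stem cells and early multipotent progenitors fall into this gate. RNA was taken from 20000 to 50000 sorted cells, pooled from several animals, and no age or sex was given in the labels. The libraries are numbered 2, 3 and 4 in each group. The labels do not say whether a number is a separate infection or pool, so each p-value speaks for the spread among these libraries alone, which may be technical.

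In the integrated stress response, kinases that sense amino acid shortage, misfolded protein in the endoplasmic reticulum (ER), heme shortage or viral RNA phosphorylate the initiation factor eIF2. General translation then drops while ATF4 mRNA is translated more, and ATF4, a transcription factor of the basic leucine zipper (bZIP) class, switches on genes for amino acid supply and stress defence. ATF4 acts as a dimer with C/EBP proteins, and several of its targets feed back on it. Blood stem cells are known to rely on this pathway under stress.

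Replicate 2 differed widely from replicates 3 and 4 in both groups. Library totals ran from 15002414 to 27754019 counts. Cxxc5, the targeted gene, was at 82.2, 59.9 and 57.9 CPM in shCtrl replicates 2, 3 and 4, and at 6.74, 17.4 and 17.9 CPM in shCxxc5. CPM is the usual depth-scaled count, here with library totals scaled by TMM, edgeR's correction for library composition. Ly6a, which encodes Sca-1, was at 46.4 and 33.1 CPM in the replicate 2 libraries and at 703 to 804 CPM in the others, while Kit lay between 82.4 and 110.4 CPM in all 6. Of the 10 LSK and stem cell markers listed, 5 were higher and 3 lower in replicate 2 past an adjusted p of 0.05 in edgeR. The shares of all genes were 17.7% and 18.7%. All 14 tested megakaryocyte markers of 15 listed were higher in replicate 2 past an adjusted p of 0.05 in edgeR, against 17.7% of genes. Their summed level was 571 to 8510 CPM over the shCtrl libraries and 363 to 2073 CPM over shCxxc5. All 26 interferon-response genes were lower there by the same test, against 18.7% of genes, with sums of 974 to 5059 and 871 to 4835 CPM. The 15 lymphocyte markers summed to 91.3 to 132 CPM over the shCtrl libraries and 123 to 144 CPM over shCxxc5. Among them only Cd3e was at 0 in every library. The variation between libraries of a group (biological coefficient of variation) was 0.312 over all 6 and 0.0294 over replicates 3 and 4. Replicates 3 and 4 of a group still differed by more than sampling noise, with a chi-square per degree of freedom of 2.34 in shCtrl and 2.28 in shCxxc5.

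Sequences upstream of the genes are shown first because ATF4 and C/EBP proteins are known to bind a shared composite element, TGATGNAA. RefSeq promoters (GRCm38.p6, C57BL/6J sequence) were present for all 10 regulators, 11 promoters in all. Both strands of the 250 bases before each start were searched. The composite element was found in 2 of the 11, those of Nupr1 and Atf3, against 3.45% of 32851 promoters. The palindromic cyclic AMP response element TGACGTCA was found in 1, that of Ppp1r15a, against 1.55% of all promoters. The ER stress element, CCAAT and CCACG with 9 bases between them, was found in 0 of the 11, and in 0.113% of all promoters. The searched elements did not overlap each other in these windows. Promoters of 36 genes in 2 lists of known ATF4 targets held the composite element in 10 of 54. A match is a match of letters and not a measured binding site, and other positions were not searched. The composite elements of the 2 regulators and of 5 of the 10 target genes that held one are printed. Those of Pycr1, Got1, Vldlr, Fgf21 and Jdp2 are not. Each printed stretch has up to 10 bases on each side, on the strand that reads TGATGNAA, with the element in capitals.
Nupr1, chr7:126625563-126625590, plus strand: aagccctgtcTGATGCAAtctggccctt
Atf3, chr1:191183426-191183453, plus strand: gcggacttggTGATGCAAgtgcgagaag
Asns, chr6:7693215-7693242, minus strand: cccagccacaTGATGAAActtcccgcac
Chac1, chr2:119351039-119351066, minus strand: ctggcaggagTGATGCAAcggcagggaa
Pck2, chr14:55540153-55540180, minus strand: tgtaagatacTGATGTAActttgaaggc
Herpud1, chr8:94386307-94386334, minus strand: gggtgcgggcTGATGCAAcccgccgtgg
Slc7a11, element nearer the start, chr3:50443643-50443670, plus strand: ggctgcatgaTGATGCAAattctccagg
Slc7a11, element farther from the start, chr3:50443662-50443689, minus strand: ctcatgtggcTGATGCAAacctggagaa
These positions are counted from the RefSeq start of 1 transcript, and both the Nupr1 and the Atf3 element lie inside the wider gene span of GENCODE M21. The Nupr1 and Asns stretches overlap annotated exons of those genes, and the other stretches overlap none. In Nupr1 and in Atf3 the match began 110 bases before the start in both, on the strand opposite to the gene. The Atf3 upstream stretch that touches no annotated exon is given on the gene's own minus strand, where the element reads in reverse, and the response element of Ppp1r15a likewise on its minus strand.
Atf3, chr1:191183341-191183583, minus strand: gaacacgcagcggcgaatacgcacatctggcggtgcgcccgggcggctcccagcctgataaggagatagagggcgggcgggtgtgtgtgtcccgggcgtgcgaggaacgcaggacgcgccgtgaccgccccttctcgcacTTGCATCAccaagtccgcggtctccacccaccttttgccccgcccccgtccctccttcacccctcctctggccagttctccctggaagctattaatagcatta
Ppp1r15a, chr7:45526269-45526290, minus strand: gcctctccggTGACGTCAgcac

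The first question was how far RNA of the regulators differed with the Cxxc5 hairpin. In replicates 3 and 4, which make up 4 of the 6 libraries, all 10 regulators fell in shCxxc5 cells. Nupr1 and Trib3 had the largest log2 fold changes, -1.85 and -1.76, and Cebpg the smallest, -0.31. The background was 9.0% of 14193 genes lower past an adjusted p of 0.05 by edgeR's quasi-likelihood test (20% in either direction). Their median log2 fold change was -0.77, against -0.003 over all genes tested. In the replicate 2 pair the ratio was below 0 for 8 regulators and above 0 for Atf4 and Cebpb. Over all 6 libraries edgeR called 0 of the 10 and 0.00% of 14637 genes. The log2 fold changes there ran from -0.26 (SE 0.13) for Cebpg to -1.46 (SE 0.50) for Nupr1. Adjusted p was 0.940 for each regulator, and 575 genes, Trib3 and Nupr1 among them, had an unadjusted p under 0.05. The targeted gene, Cxxc5, was not called by this fit either (-2.25, SE 0.40, edgeR adjusted p = 0.940). With the replicate number as a block edgeR also called 0 genes, with 1796 at an unadjusted p under 0.05. DESeq2 called 19 genes, Cxxc5 among them, but 0 of the 10. In bulk RNA, fewer cells that express a gene and less RNA per cell cannot be told apart.

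**Figure D1:**
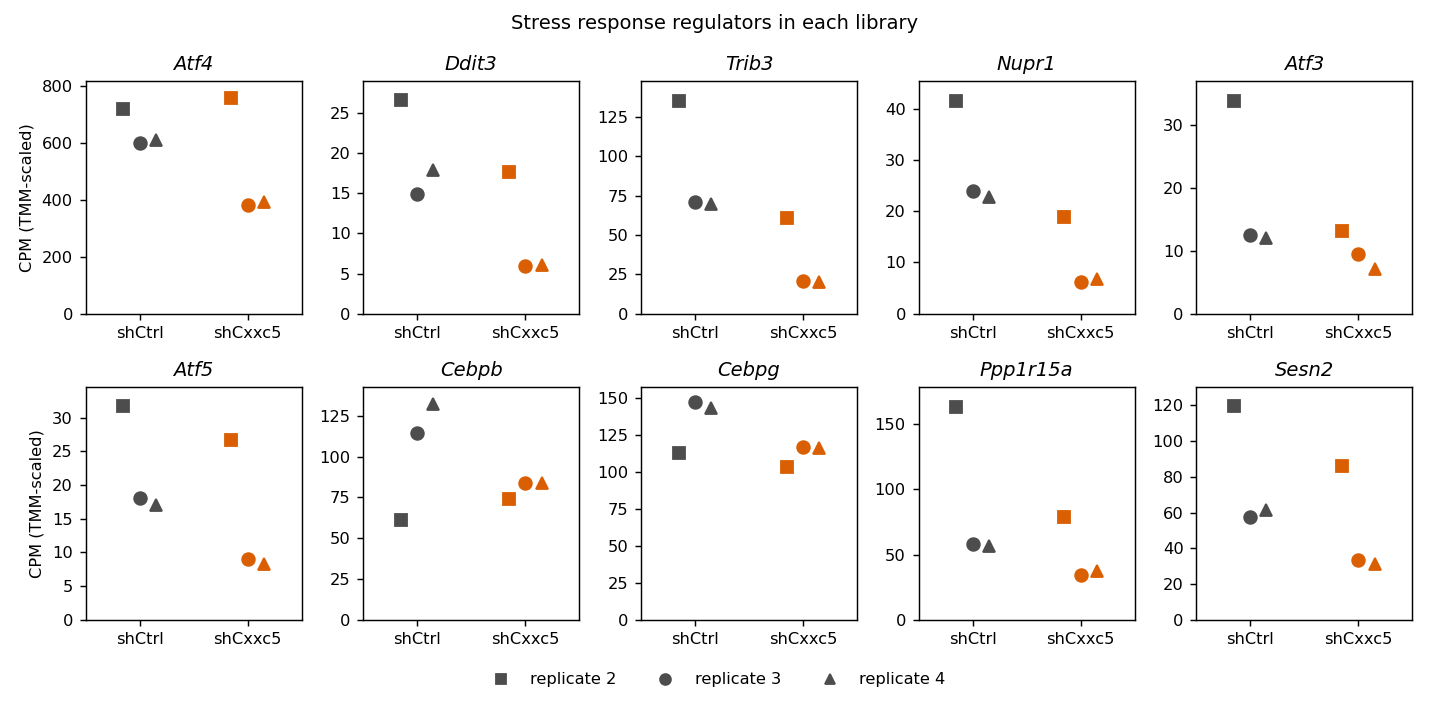
TMM-scaled CPM of the 10 regulators (y axes, each from 0) in each library of shCtrl (grey) and shCxxc5 (orange); squares, circles and triangles are replicates 2, 3 and 4. The replicate 3 and 4 points of shCxxc5 lie below those of shCtrl in all 10 panels, and the replicate 2 points lie above the other 2 of their group in every panel but Cebpb and Cebpg.

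Atf4 (ENSMUSG00000042406, chromosome 15, 80255184 to 80257541, plus strand) encodes the transcription factor at the centre of the response. Its level was 720.2, 598 and 612 CPM in shCtrl replicates 2, 3 and 4 and 759.5, 380.5 and 391 CPM in shCxxc5. Both replicate 2 libraries were high and the groups overlapped, because shCxxc5 replicate 2 was the highest of the 6. In replicates 3 and 4 Atf4 fell, by 0.64 on the log2 scale (SE 0.03, edgeR adjusted p = 1.4e-14), to 63.6% of the shCtrl level in pair 3 and 63.9% in pair 4. In pair 2 the log2 ratio was 0.08.

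Ddit3 (ENSMUSG00000025408, chromosome 10, 127290774 to 127296288, plus strand) encodes CHOP, a C/EBP-family factor that ATF4 induces and that promotes cell death under lasting stress. It was at 26.6, 14.9 and 17.9 CPM in shCtrl and at 17.7, 5.89 and 6.11 CPM in shCxxc5 replicates 2, 3 and 4. The shCxxc5 replicate 2 library lay among the control values and the other shCxxc5 libraries below all of them. The log2 fold change in replicates 3 and 4 was -1.43 (SE 0.13, edgeR adjusted p = 2.37e-09), and the pair 2 ratio was -0.59. Of its 1713 exon bases, 105 also belong to a second annotated gene named Ddit3, and 81 to antisense genes.

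Atf5 (ENSMUSG00000038539, chromosome 7, 44812256 to 44816658, minus strand) encodes the closest relative of ATF4, known for its part in the mitochondrial stress response. Its values were 31.7, 18.02 and 17.02 CPM in shCtrl and 26.7, 9.05 and 8.27 CPM in shCxxc5. Within each pair the shCxxc5 library was lower, but shCxxc5 replicate 2 exceeded shCtrl replicates 3 and 4. Atf5 fell by 1.01 on the log2 scale in replicates 3 and 4 (SE 0.11, edgeR adjusted p = 1.17e-07), and its pair 2 ratio was -0.25.

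Atf3 (ENSMUSG00000026628, chromosome 1, 191170296 to 191218039, minus strand) encodes a bZIP factor that many stresses induce quickly. It was at 33.9, 12.5 and 12.04 CPM in shCtrl and at 13.2, 9.41 and 7.10 CPM in shCxxc5, with shCtrl replicate 2 far above the rest. The groups overlapped, since shCxxc5 replicate 2 exceeded shCtrl replicates 3 and 4. Its log2 fold change in replicates 3 and 4 was -0.55 (SE 0.13, edgeR adjusted p = 0.00299), the weakest call of the 10. That call was lost without shCtrl replicate 3 (-0.52, edgeR adjusted p = 0.0808) and without shCxxc5 replicate 4 (-0.38, edgeR adjusted p = 0.0975). In pair 2 the ratio was -1.35, the lowest of the 10 in that pair.

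Trib3 and Nupr1 were the 2 regulators whose groups did not overlap over all 6 libraries, against a background of 6.35% of genes with every shCxxc5 library lower. Trib3 (ENSMUSG00000032715, chromosome 2, 152337422 to 152344032, minus strand) encodes a pseudokinase that binds ATF4 and CHOP and damps their activity. Its levels were 135.2, 70.8 and 69.6 CPM in shCtrl and 60.9, 21.0 and 20.1 CPM in shCxxc5. The shCxxc5 replicate 2 library came closest to the controls, at 60.9 against 69.6 CPM. Its log2 ratios were -1.15, -1.75 and -1.79 in pairs 2, 3 and 4, or 45.0%, 29.7% and 28.8% of shCtrl. In replicates 3 and 4 Trib3 fell by 1.76 (SE 0.07, edgeR adjusted p = 3.08e-17).

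Nupr1 (ENSMUSG00000030717, chromosome 7, 126623249 to 126630861, minus strand) encodes a small chromatin-bound stress protein. It was at 41.5, 23.9 and 22.8 CPM in shCtrl and at 18.9, 6.15 and 6.85 CPM in shCxxc5. Each shCxxc5 value lay below each shCtrl value. The ratios in pairs 2, 3 and 4 were -1.13, -1.94 and -1.72, and the fall in replicates 3 and 4 was 1.85 on the log2 scale (SE 0.11, edgeR adjusted p = 5.57e-13).

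Sesn2 and Ppp1r15a act as brakes. Sesn2 (ENSMUSG00000028893, chromosome 4, 132492032 to 132510501, minus strand) encodes a leucine-binding protein that restrains the growth kinase complex mTORC1. Its values were 119.6, 57.8 and 61.2 CPM in shCtrl and 85.9, 33.4 and 31.1 CPM in shCxxc5, lower in shCxxc5 within every pair and overlapping across pairs. Sesn2 fell by 0.87 on the log2 scale in replicates 3 and 4 (SE 0.07, edgeR adjusted p = 8.67e-11). Ppp1r15a (ENSMUSG00000040435, chromosome 7, 45522916 to 45526268, minus strand) encodes GADD34, which directs a phosphatase to eIF2 and so ends the response. It was at 163.2, 58.0 and 56.6 CPM in shCtrl and at 79.0, 34.7 and 37.2 CPM in shCxxc5. The replicate 2 libraries were the highest of each group. Its fall in replicates 3 and 4 was 0.67 (SE 0.07, edgeR adjusted p = 7.92e-09), and its pair 2 ratio, -1.05, was lower than those of pairs 3 and 4, -0.74 and -0.60.

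The C/EBP partners had another order of libraries, with replicate 2 the lowest of each group. Cebpb (ENSMUSG00000056501, chromosome 2, 167688915 to 167690418, plus strand) encodes a myeloid transcription factor that pairs with ATF4 and CHOP. Its values were 60.9, 114 and 132 CPM in shCtrl and 74.0, 83.6 and 83.6 CPM in shCxxc5, so the lowest library was shCtrl replicate 2. In replicates 3 and 4 it fell by 0.55 (SE 0.05, edgeR adjusted p = 3.22e-08), and in pair 2 the ratio was 0.28. Its exons share 312 of 1504 bases with an antisense gene, Tmem189, so part of its count could be antisense reads if strand was ignored in counting. Cebpg (ENSMUSG00000056216, chromosome 7, 35046422 to 35056573, minus strand) encodes a C/EBP protein without an activation domain of its own, which dimerizes with ATF4. It was at 113, 147 and 143 CPM in shCtrl and at 103, 117 and 116 CPM in shCxxc5. The groups overlapped through shCtrl replicate 2. Its fall in replicates 3 and 4 was 0.31 (SE 0.04, edgeR adjusted p = 2.86e-06).

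**Figure D2:**
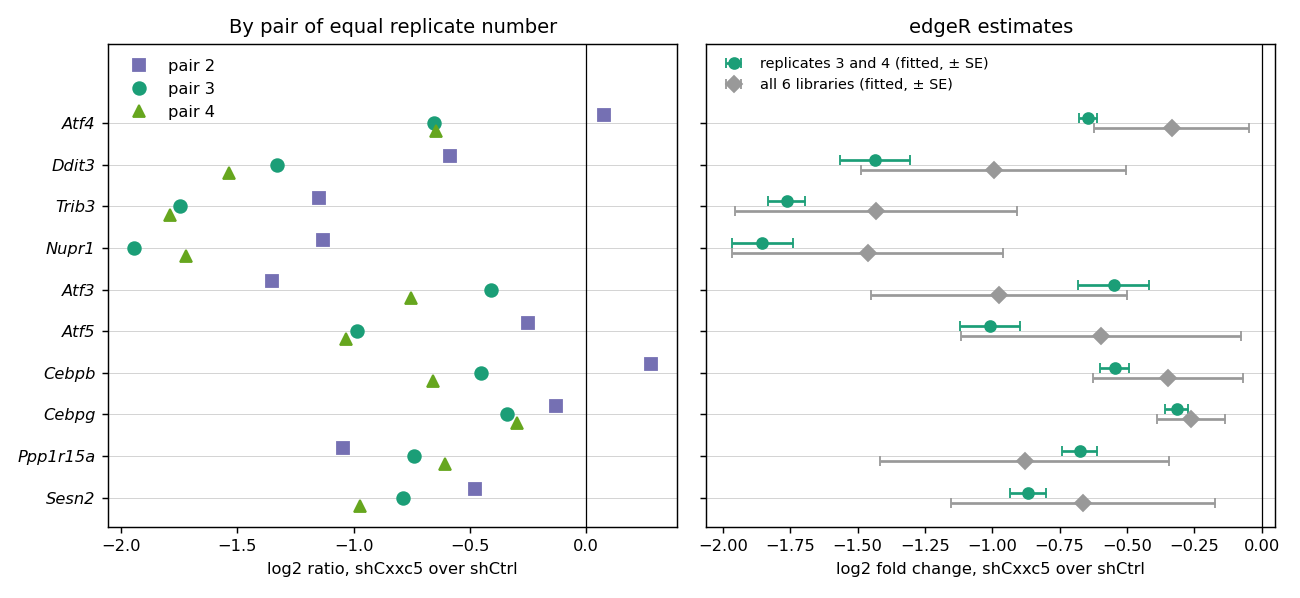
Left, log2 ratios of shCxxc5 over shCtrl (x axis) for each regulator (y axis) within the pairs numbered 2, 3 and 4; right, edgeR's log2 fold changes with bars of 1 SE for replicates 3 and 4 (green) and all 6 libraries (grey). Pairs 3 and 4 lie closest for Atf4 and farthest apart for Atf3 (-0.41 and -0.75), pair 2 lies to the right for 8 genes and to the left for Atf3 and Ppp1r15a, and the bars over 6 libraries are the wider ones.

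The log2 difference between replicates 3 and 4 of a group was largest for Atf3 in shCxxc5 (0.40) and Ddit3 in shCtrl (-0.26), and smaller than the fitted fall for every regulator. Ratios were below 0 in all 3 pairs for 8 of 10 regulators, where 22.4% of genes were lower in all pairs. The median ratios of the 10 were -0.53, -0.76 and -0.86 in pairs 2, 3 and 4, against -0.04, -0.01 and -0.005 over all genes. DESeq2 on replicates 3 and 4 also called all 10 lower, where 4.11% of genes were. Cell type markers moved there too, counted by edgeR against 9.0% of genes lower and 11% higher. Of 13 tested megakaryocyte markers 7 were lower, with a summed level of 571 and 573 CPM in shCtrl and 363 and 378 CPM in shCxxc5. Among interferon-response genes 11 of 26 were lower and 1 higher, at sums of 5040 to 5059 and 4797 to 4835 CPM. Erythroid markers had 4 of 11 lower and 1 higher (sums of 531 to 551 and 587 to 619 CPM), granulocyte and monocyte markers 4 of 15 in each direction, and mast cell, basophil and eosinophil markers 5 of 13 lower and 3 higher. Of the lymphocyte markers 1 of 6 tested was higher. Among 10 LSK and stem cell markers 2 rose and 2 fell, with Ly6a lower by 0.16 (edgeR adjusted p = 0.000327) and Kit at 0.04, which did not pass. DESeq2 called fewer markers lower: 6 megakaryocyte, 7 interferon-response, 1 erythroid and 1 granulocyte and monocyte. The part of these markers in the falls of the regulators was not tested.

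The second question was how the regulators differed between replicate 2 and replicates 3 and 4 within a group. With the group in the fit, 8 of 10 regulators were higher in replicate 2 past an adjusted p of 0.05, against 17.7% of genes. Cebpg was lower there, against 18.7% of genes, and Cebpb (-0.58, SE 0.19) missed the threshold with an edgeR adjusted p of 0.0566. The log2 differences of those called higher ran from 0.63 (SE 0.15) for Atf4, with an edgeR adjusted p of 0.0206, to 1.33 (SE 0.09) for Ppp1r15a. Trib3 was higher by 1.25, Atf5 by 1.24, Sesn2 by 1.21, Nupr1 by 1.17, Ddit3 by 1.13 and Atf3 by 1.09. The median was 1.15 over the 10 and -0.004 over all genes. The call for Atf4 was lost without shCtrl replicate 3, without either of shCxxc5 replicates 3 and 4, and with no filter on low counts. Without shCxxc5 replicate 2 the value for Atf4 was 0.25, and without shCtrl replicate 2 it was 0.98. Cebpb was called lower without either replicate 2 library (-0.18 and -1.01) and by DESeq2. The call for Cebpg was lost without shCtrl replicate 3 or 4 and with library totals in place of TMM. Cell type markers differed with the same libraries. Megakaryocyte markers summed to 8510 CPM in shCtrl and 2073 CPM in shCxxc5 replicate 2, and erythroid markers, 10 of 11 higher, to 852 and 1456 CPM against 531 to 619 CPM in the others. In shCxxc5 replicate 2 granulocyte and monocyte markers summed to 6254 CPM, against 1700.0 and 1783 CPM in shCxxc5 replicates 3 and 4, and mast cell, basophil and eosinophil markers to 2453 CPM against 671 and 618 CPM. In shCtrl replicate 2 these sums were 1138 and 532 CPM, below the other shCtrl libraries. The part of these markers and of Ly6a was not tested. What replicate 2 stands for and these differences cannot be told apart.

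**Figure D3:**
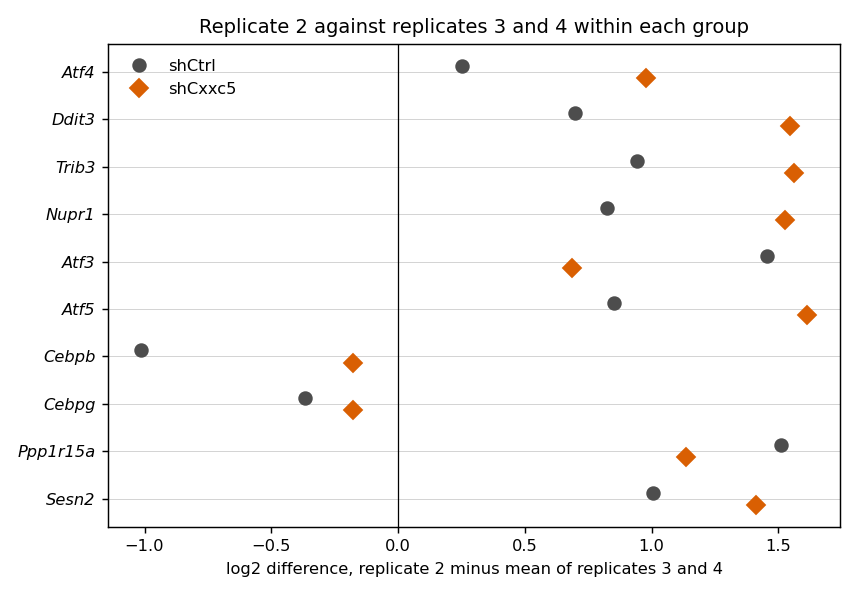
Log2 CPM of replicate 2 minus the mean of replicates 3 and 4 (x axis) for each regulator (y axis) in shCtrl (grey circles) and shCxxc5 (orange diamonds); each point rests on 3 libraries. Both groups lie above 0 for 8 genes and below 0 for Cebpb and Cebpg.

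Within the groups taken alone, the size of this difference varied. In shCtrl it was largest for Ppp1r15a (1.51) and Atf3 (1.45), at 1.01 for Sesn2, 0.94 for Trib3, 0.85 for Atf5, 0.82 for Nupr1 and 0.70 for Ddit3, and 0.25 for Atf4. In shCxxc5 it was 1.61 for Atf5, 1.56 for Trib3, 1.54 for Ddit3, 1.52 for Nupr1, 1.41 for Sesn2, 1.13 for Ppp1r15a, 0.98 for Atf4 and 0.69 for Atf3. Cebpb stood at -1.01 in shCtrl and -0.18 in shCxxc5. The difference between the groups equals the difference of the shCxxc5 effect between pair 2 and the other pairs. That interaction passed for all 10 in edgeR, against 35.8% of genes, on 2 residual degrees of freedom that come from replicates 3 and 4 alone. It was above 0, a smaller fall or none in pair 2, for 8 regulators (16.8% of genes), and below 0, a larger fall in pair 2, for Atf3 and Ppp1r15a (19.0% of genes). Those 2 and Cebpg did not pass it in DESeq2. In the same contrast mast cell, basophil and eosinophil markers were higher in 13 of 13 (median 2.47), erythroid markers in 9 of 11 (1.86) and granulocyte and monocyte markers in 10 of 15, with 2 lower (1.07). Megakaryocyte markers were lower in 14 of 14 (median -1.67). These medians exceed the regulators' values in size. LSK and stem cell markers were lower in 8 of 10 and higher in 1 (median -0.53), a median within the range of the regulators' sizes. The part of the markers was not tested. Cxxc5 itself was at 8.20% of control in pair 2 and at 29.1% and 30.9% in pairs 3 and 4.

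Between genes, levels were compared per kilobase of annotated exon. By the mean over all 6 libraries Atf4 was the most abundant, at 245 CPM per kilobase, followed by Cebpb (60.8), Trib3 (29.6), Ppp1r15a (24.3), Cebpg (21.9), Sesn2 (18.7), Atf5 (9.26), Ddit3 (8.67), Nupr1 (7.96) and Atf3 (6.82). Atf4, at 161 to 322 CPM per kilobase, exceeded each other regulator in every library. Cebpb, at 40.5 to 87.9, overlapped Trib3 (9.44 to 63.6), as shCtrl replicate 2 held 63.6 for Trib3 and 40.5 for Cebpb. Taken library by library, Sesn2 exceeded Atf5 in all 6 (8.95 to 34.4 against 4.15 to 15.9 CPM per kilobase). Each other pair of neighbours below Atf4 changed order in at least 1 library.

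The third question was how other genes of the pathway behaved in replicates 3 and 4, from lists chosen with earlier results of these data known. Known ATF4 targets fell: 22 of 24 tested genes of amino acid supply were lower and 0 higher by edgeR, against 9.0% and 11% of all genes. Their median log2 fold change was -0.74 against -0.003 over all genes. Asns, asparagine synthetase, fell by 1.38 (SE 0.04), Gpt2, which makes alanine, by 1.46 (SE 0.05), the folate enzyme gene Mthfd2 by 1.003 (SE 0.04) and Pck2, the mitochondrial phosphoenolpyruvate carboxykinase, by 0.98 (SE 0.04). Asns was at 453.9, 276 and 272 CPM in shCtrl replicates 2, 3 and 4 and at 375, 107 and 104 CPM in shCxxc5, and its pair 2 ratio was -0.28. Among 18 tested targets with other roles 15 fell and 0 rose (median -0.63). Chac1, whose enzyme degrades glutathione, fell by 1.84, the growth factor gene Vegfa by 0.86, the translation inhibitor gene Eif4ebp1 by 0.70 and Herpud1 of ER protein degradation by 0.66. In pair 2 the medians of these 2 lists were -0.28 and -0.36.

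**Figure D4:**
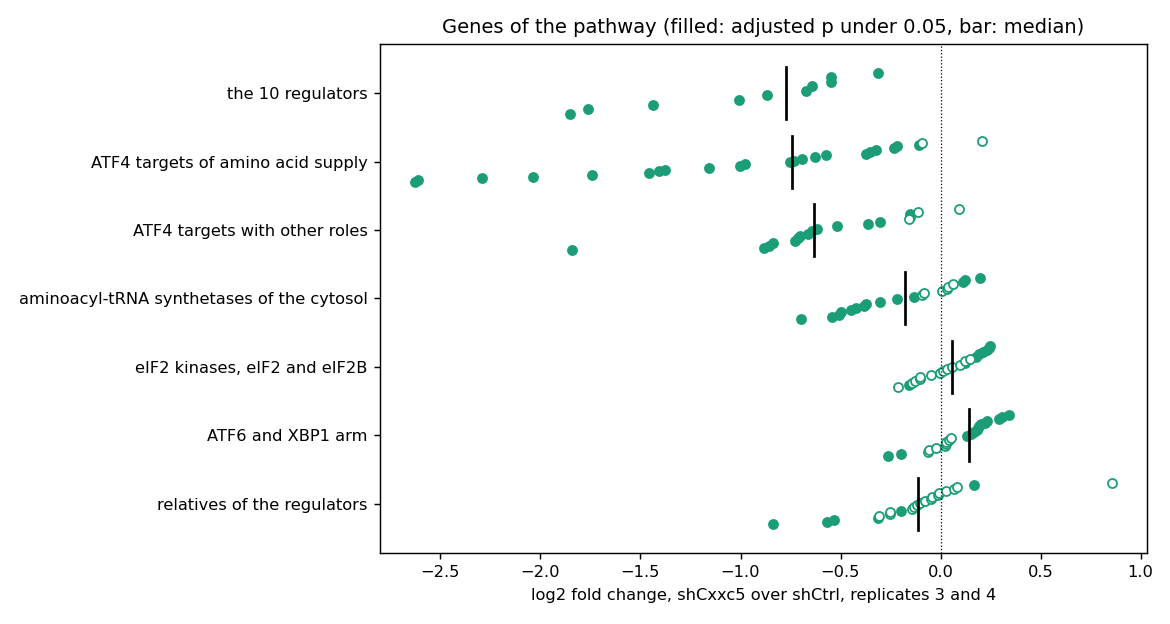
Log2 fold change of shCxxc5 over shCtrl in replicates 3 and 4 (x axis) for the tested genes of each list (rows); filled points have an edgeR adjusted p under 0.05, open points do not, and black bars are medians. The 10 regulators lie left of 0, as do the tested genes of both lists of ATF4 targets except Cbs (0.21) and Lonp1 (0.09), 2 open points, and the genes of the ATF6 and XBP1 arm and of eIF2 lie around or right of it.

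Genes that act upstream of ATF4 were the next list. Of 21 genes for the eIF2 kinases, eIF2, its exchange factor eIF2B and related factors, 7 rose and 1, Eif2s2, fell by edgeR, with a median of 0.06. DESeq2 called 3 higher and 0 lower, with an adjusted p of 0.0716 for both Eif2s2 and Eif2b4. Denr, a factor of reinitiation, rose by 0.25, Eif2s1, the phosphorylated subunit of eIF2, by 0.24, and the exchange factor genes Eif2b4 and Eif2b5 by 0.23 and 0.18. In the ATF6 and XBP1 arm, the branches of the unfolded-protein response that raise ER chaperones, 12 of 22 rose and 2 fell (median 0.14). The cochaperone gene Dnajb11 rose by 0.34, Hspa5 by 0.31, Hsp90b1 by 0.29 and Calr by 0.23, while the sensor genes Atf6 and Ern1 fell by 0.20 and 0.26. Eif2s2, Atf6 and Ern1 were named here after their values were seen. Of 20 cytosolic aminoacyl-tRNA synthetases, which load amino acids onto tRNA, 11 fell and 3 rose (median -0.18), with Cars at -0.70, Sars at -0.54, Gars at -0.51 and Aars at -0.50. The background in this comparison was 11% of genes higher and 9.0% lower.

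Of 22 relatives of the regulators 5 fell and 1 rose, against 9.0% of genes lower and 11% higher, with a median of -0.11. Jdp2, a bZIP repressor also on the target list, fell by 0.84, Atf2 by 0.31 and Atf6 by 0.20, and Cebpz rose by 0.17. The other 2 that fell were the Trib3 relatives Trib1 (-0.57, SE 0.18) and Trib2 (-0.53, SE 0.15), neither of which passed in DESeq2 (adjusted p = 0.177 and 0.109). The Sesn2 relatives Sesn1 (-0.04, SE 0.05) and Sesn3 (-0.13, SE 0.09) and the Ppp1r15a relative Ppp1r15b (-0.05, SE 0.04) did not pass, nor did Cebpa (0.07, SE 0.04). The relatives of Trib3, Sesn2 and Ppp1r15a and Cebpa were named after their values were seen.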

How the data were processed

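RNA of 6 libraries was sequenced, and the authors deposited raw read counts per Ensembl gene. The submitters' processing notes name STAR 2.5.2b, GRCm38 and featureCounts 1.5.1. Neither strand setting nor annotation release is given in the sources used here. Symbols came from GENCODE M21 (49326 of 49671 identifiers matched). The tests used edgeR 4.0.16 (R 4.3.3), TMM scaling, filterByExpr, a robust quasi-likelihood fit and Benjamini-Hochberg adjustment over all genes tested (threshold 0.05). The standard error (SE) is the absolute log2 fold change over the square root of F. Log2 ratios used a prior count of 2. The 10 regulators, the lists, the rule for named genes and the use of replicates 3 and 4 alone were chosen with earlier results of these data known. The rule named all 10, Cxxc5, the 4 genes of smallest p per pathway list in replicates 3 and 4, and for Atf4, Ddit3 and Trib3 the 5 genes of most similar profile. The marker lists covered LSK and stem cells, megakaryocytes, erythroid cells, granulocytes and monocytes, mast cells, basophils and eosinophils, lymphocytes, and the interferon response. Deviations from group means correlated at 0.670, 0.554 and 0.489 within equal replicate numbers 2, 3 and 4. Replicates 3 and 4 of opposite groups reached 0.489 and 0.475. Deviations within a group sum to 0, so the shared difference of replicate 2 alone makes replicates 3 and 4 correlate. The values match replicate 2 across groups but do not tell number 3 from number 4. Pairs 3 and 4 rest on the numbering alone. Alternatives were DESeq2 1.42.0, other scalings and filters, the block and leaving out each library. The code was tested on simulated data. Counts carry no molecular identifiers.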

Additional observations from a re-analysis of the deposited data

Results flagged for a closer look

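The effect of the Cxxc5 hairpin differed between the replicate 2 pair and replicates 3 and 4 for each of the 10 regulators, by edgeR's test of that difference (35.8% of genes passed). The log2 ratio in pair 2 was above that in replicates 3 and 4 by 0.85 for Ddit3 (SE 0.18), 0.83 for Cebpb, 0.76 for Atf5, 0.73 for Atf4, 0.72 for Nupr1, 0.62 for Trib3, 0.39 for Sesn2 and 0.19 for Cebpg (edgeR adjusted p = 0.0433). For Atf3 the difference was -0.80 (SE 0.18) and for Ppp1r15a -0.37 (SE 0.09), so both were lower in pair 2. Cell type markers differed in the same contrast. Mast cell, basophil and eosinophil markers were higher in 13 of 13, erythroid in 9 of 11 and granulocyte and monocyte in 10 of 15, with 2 lower. The background was 16.8% of genes higher and 19.0% lower. Megakaryocyte markers were lower in 14 of 14, and LSK and stem cell markers in 8 of 10, with 1 higher. The part of these markers was not tested. The test has 2 residual degrees of freedom and takes the single replicate 2 libraries to vary like the others. The DESeq2 adjusted p was 0.0804 for Atf3, 0.0827 for Ppp1r15a and 0.235 for Cebpg. The call for Cebpg was also lost without shCtrl replicate 3, shCxxc5 replicate 3 or shCxxc5 replicate 4, and that for Atf3 without shCxxc5 replicate 3.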

How the results depend on the processing

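Every fitted log2 fold change of the 10 regulators kept its sign under all alternatives run, and 401 of 420 such values kept their side of the threshold. Over all 6 libraries the count of called genes was 0 except in DESeq2 (19), and the replicate block, at 0 calls, changed no call there. As 0 of the 10 regulators were called in that comparison under any setting, every change of side lay in the other comparisons. In replicates 3 and 4 the block gave 3300 calls, against 2833 without it, and changed no call of a regulator. There DESeq2 called 1353 genes, and leaving out 1 library 1507 to 2043. With library totals in place of TMM, 41.1% of calls were higher, against 54.9%. For replicate 2 against replicates 3 and 4, the count of 5330 became 3183 to 8816 when 1 library was left out, and library totals gave 59.7% of calls higher, against 48.6%. The difference of effects was called for 5235 genes by edgeR, 2390 by DESeq2 and 4240 to 5116 with 1 library left out. A fit that leaves 1 library in an arm assumes that it varies like the rest. The causes of these differences were not tested.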

Other observations

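Profiles over the 6 libraries were ranked by their root mean square difference from a regulator's, on centred log2 CPM, among 11081 other genes. Nearest to Atf4 were the serine synthesis genes Psat1 (0.043) and Psph (0.078), with Abhd18 (0.066), Phf10 (0.077) and the vesicular monoamine transporter gene Slc18a2 (0.082). The measure counts the size of a difference as well as its direction. By it the other regulators were not near Atf4. The closest, Sesn2 and Atf5, ranked 1815 and 1981 (0.34 each), and the farthest, Trib3 and Nupr1, 9612 and 9619 (0.65 each). Trib3 and Nupr1 fell with Atf4 in replicates 3 and 4, by more (-1.76 and -1.85 against -0.64). All were higher in replicate 2, Trib3 and Nupr1 by more (1.25 and 1.17 against 0.63). In pair 2 their ratios were below 0 and that of Atf4 was 0.08. Ranked from Ddit3 and from Trib3, Atf4 was at 107 and 207. Nearest to Trib3 were Nupr1 (0.080), the glycine transporter gene Slc6a9 (0.082), Ddit3 (0.24), Slc1a4 (0.26) and Chac1 (0.26). Nearest to Ddit3 were Asns (0.15), Slc1a4 (0.16), Glrp1 (0.19), Pycr1 (0.19) and Chac1 (0.21). The libraries share their groups and the difference of replicate 2, so these ranks describe the 6 libraries and were not tested.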
